A study of Mus musculus with 6 samples.

Results

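Mpo, Ltf, Ngp, S100a8 and S100a9 are genes of the neutrophil granules and of the abundant neutrophil cytosolic proteins, and they were followed here in RNA from the mouse cochlear duct. All 5 had a row in the deposited table, which listed 14865 genes. They were selected on the contrast described below, since their difference between the genotypes in these same libraries was known when they were chosen. Their levels, their fold changes and their order are therefore given as descriptions, with no test. The study compared cochlear ducts of C57BL/6 mice at postnatal day 8 that carried Gfi1+/+ or Gfi1cre/+, with 3 libraries of polyadenylated RNA per genotype. In Gfi1cre/+ mice Cre coding sequence replaces part of 1 copy of Gfi1, so these animals carry Cre and 1 intact copy of Gfi1. Each Gfi1+/+ library held 2 cochleae of 1 mouse, and each Gfi1cre/+ library held 6 cochleae pooled from 3 mice, so a pooled library averages over animals that a single-mouse library does not.

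Neutrophils mature in the bone marrow, where granule proteins are made in a fixed order. Promyelocytes fill the primary (azurophil) granules and transcribe Mpo, whereas myelocytes and metamyelocytes fill the secondary (specific) granules and transcribe Ltf and Ngp. S100a8 and S100a9 rise as the cells mature and stay high in neutrophils in blood. GFI1 is a transcriptional repressor of hair cells and of several blood lineages, and neutrophils do not mature properly in mice that lack it. In RNA from a whole tissue, fewer cells of a type and less RNA per cell cannot be told apart.

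Each value is a number of counted reads over the size factor of its library, called normalized reads here. Reads on genes ran from 13603908 in Gfi1+/+ replicate 1 to 19359753 in Gfi1cre/+ replicate 1, and the floor of 3 reads was worth between 2.61 and 3.70 normalized reads. Gfi1 itself was at 146.89, 160.19 and 151.89 normalized reads in the Gfi1+/+ libraries and at 135.77, 129.6 and 138.7 in the Gfi1cre/+ libraries. The Gfi1cre/+ libraries were lower without overlap, with a log2 fold change of -0.18 (SE 0.0975) that did not pass limma's test (adjusted p = 0.999). The paper states that the part of the transcript kept on the Cre allele still adds reads to Gfi1. These values therefore do not measure RNA of the intact copy alone. Of 14455 genes tested, 4 (0.0277%) differed at an adjusted p under 0.05 by limma, and all 4 were Y-linked. Ddx3y, a Y-linked RNA helicase gene, was at 0 in the Gfi1+/+ libraries and at 231.51, 289.38 and 484.97 normalized reads in the Gfi1cre/+ libraries, so sex and genotype cannot be told apart in any value below. Markers of the labelled tissue were read in every library, 11 of 12 hair cell genes and 10 of 10 cochlear epithelium genes having a row. Gfi1+/+ replicate 1 stood apart by its neuron markers, which summed to 10087 normalized reads against 1809 to 3681 in the other 5 libraries. Gfi1+/+ replicate 3 stood apart from the other Gfi1+/+ libraries in the granule genes, as the values below show.

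The sequences before the transcription starts of the 3 granule protein genes are shown because these genes were the ones furthest apart between the genotypes. All 5 genes matched a RefSeq promoter window of 300 bases (250 before the start and 50 after it) on GRCm38.p6. The part of each window that lies before the GENCODE gene model is printed 5′ to 3′, on the + strand, from chr11:87793534-87793580 for Mpo, chr9:111019042-111019270 for Ltf and chr9:110419558-110419746 for Ngp. Capitals mark matches to 4 motifs searched on both strands, none of which overlapped.
Mpo: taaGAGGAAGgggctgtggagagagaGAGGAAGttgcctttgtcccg
Ltf: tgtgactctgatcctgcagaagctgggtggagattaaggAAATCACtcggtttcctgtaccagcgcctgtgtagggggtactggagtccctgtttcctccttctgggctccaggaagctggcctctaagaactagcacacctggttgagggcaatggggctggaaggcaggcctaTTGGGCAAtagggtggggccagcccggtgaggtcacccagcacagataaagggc
Ngp: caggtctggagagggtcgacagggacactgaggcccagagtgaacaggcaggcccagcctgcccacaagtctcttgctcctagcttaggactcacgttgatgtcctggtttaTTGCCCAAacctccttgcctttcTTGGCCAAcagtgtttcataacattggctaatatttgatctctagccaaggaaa

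The motifs were AAATCNC for GFI1, TTGNNCAA for C/EBP factors, GAGGAAG for PU.1 and TATAAA for the TATA box. C/EBP factors and PU.1 are the activators of granule genes during granulocyte maturation. The Mpo window held the PU.1 letters 2 times, at 247 to 241 and 224 to 218 bases before the RefSeq start. The Ltf window held AAATCAC at 211 to 205 bases and TTGGGCAA at 75 to 68 bases before its start. The Ngp window held the C/EBP letters 3 times, as TTGCCCAA at 138 to 131 bases, as TTGGCCAA at 115 to 108 bases and as TTGGGCAA at 11 to 4 bases before its start, the last within the GENCODE gene model and not printed. The S100a8 window held CTTCCTC, the PU.1 letters on the other strand, at 171 to 165 bases and TATAAA at 30 to 25 bases before its start. The S100a9 window held TATAAA alone, beginning on the start itself. Of 32851 RefSeq promoter windows of the same length, 11.7% held the GFI1 letters, 6.40% the C/EBP letters, 13.6% the PU.1 letters and 13.6% the TATA box letters. Ltf was thus the only one of the 5 windows with the GFI1 letters, and Ltf and Ngp were the only ones with the C/EBP letters. A match describes the letters in the window and does not show a bound site.

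The primary granule gene Mpo (ENSMUSG00000009350, chr11:87793581-87804413 on the + strand, 14 exons in its longest transcript) encodes myeloperoxidase, which makes hypochlorous acid in the phagosome. Mpo was at 6.17, 3.14 and 18.99 normalized reads in the Gfi1+/+ libraries, here and below in the order of replicates 1 to 3, and at 48.74, 33.73 and 79.26 in the Gfi1cre/+ libraries. Every Gfi1cre/+ library was above every Gfi1+/+ library, and the highest was Gfi1cre/+ replicate 3. The mean was 9.43 ± 8.41 normalized reads (SD, n = 3) in Gfi1+/+ and 53.9 ± 23.2 (SD, n = 3) in Gfi1cre/+, a ratio of means of 5.71. On the log2(normalized reads + 1) scale the log2 fold change was 2.62 (SE 0.595), a fold of 6.16. With 0.5 added in place of 1 it was 2.72. For every member the fold on this scale was larger than the ratio of means, as 2.23 against 1.81 for S100a8. These values rested on 5, 3 and 18 reads in Gfi1+/+ and on 56, 38 and 84 reads in Gfi1cre/+. The exact 95% Poisson interval, which covers counting error only, reached from 11.3 to 30.01 normalized reads in Gfi1+/+ replicate 3 and from 23.9 to 46.3 in Gfi1cre/+ replicate 2. The intervals of the nearest libraries of the 2 genotypes therefore overlapped although the values did not.

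The secondary granule gene Ltf (ENSMUSG00000032496, chr9:111019271-111042767 on the + strand, 17 exons in its longest transcript) encodes lactoferrin, which binds iron. Ltf was at 2.47, 7.33 and 28.48 normalized reads in Gfi1+/+ and at 73.98, 39.95 and 41.52 in Gfi1cre/+. The genotypes did not overlap here either, but Gfi1+/+ replicate 3 lay nearer to the Gfi1cre/+ libraries than to the other Gfi1+/+ libraries, and the highest library was Gfi1cre/+ replicate 1. The mean was 12.8 ± 13.8 normalized reads in Gfi1+/+ and 51.8 ± 19.2 in Gfi1cre/+ (SD, n = 3 each), a ratio of means of 4.06 and a log2 fold change of 2.42 (SE 0.698). The 2 reads in Gfi1+/+ replicate 1 lay under the floor of 3 reads, and their interval reached from 0.299 to 8.92 normalized reads. The interval of Gfi1+/+ replicate 3 reached from 18.8 to 41.4 and that of Gfi1cre/+ replicate 2 from 29.1 to 53.5. As for Mpo, the intervals of the nearest libraries therefore overlapped although the values did not.

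Ngp (ENSMUSG00000032484, chr9:110419747-110423012 on the + strand, 4 exons) encodes neutrophilic granule protein, a cystatin-related protein of the secondary granules. Ngp was at 4.94, 4.19 and 44.3 normalized reads in Gfi1+/+ and at 96.61, 31.96 and 29.25 in Gfi1cre/+. The genotypes overlapped, because Gfi1+/+ replicate 3 was above Gfi1cre/+ replicates 2 and 3. The mean was 17.8 ± 22.9 normalized reads in Gfi1+/+ and 52.6 ± 38.1 in Gfi1cre/+ (SD, n = 3 each), a ratio of means of 2.95 and a log2 fold change of 2.04 (SE 0.822). Of the 5 genes, Ngp had the widest spread within both genotypes, with an SD of 1.75 on the log2 scale in Gfi1+/+ and of 0.942 in Gfi1cre/+.

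S100a8 and S100a9 encode the paired subunits of calprotectin, a calcium- and zinc-binding complex that makes up much of the neutrophil cytosol. S100a8 (ENSMUSG00000056054, chr3:90668978-90670035 on the + strand, 2 exons) was at 8.64, 8.38 and 41.14 normalized reads in Gfi1+/+ and at 49.61, 25.74 and 30.19 in Gfi1cre/+. Gfi1+/+ replicate 3 was again above Gfi1cre/+ replicates 2 and 3. The mean was 19.4 ± 18.8 normalized reads in Gfi1+/+ and 35.2 ± 12.7 in Gfi1cre/+ (SD, n = 3 each), a ratio of means of 1.81 and a log2 fold change of 1.16 (SE 0.590). This was the smallest fold change of the 5 genes. S100a9 (ENSMUSG00000056071, chr3:90692632-90695721 on the - strand, 3 exons) was at 12.34, 21.99 and 94.93 normalized reads in Gfi1+/+ and at 122.72, 81.67 and 83.97 in Gfi1cre/+. Here too Gfi1+/+ replicate 3 was above Gfi1cre/+ replicates 2 and 3. The mean was 43.1 ± 45.2 normalized reads in Gfi1+/+ and 96.1 ± 23.1 in Gfi1cre/+ (SD, n = 3 each), a ratio of means of 2.23 and a log2 fold change of 1.63 (SE 0.602).

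**Figure D1:**
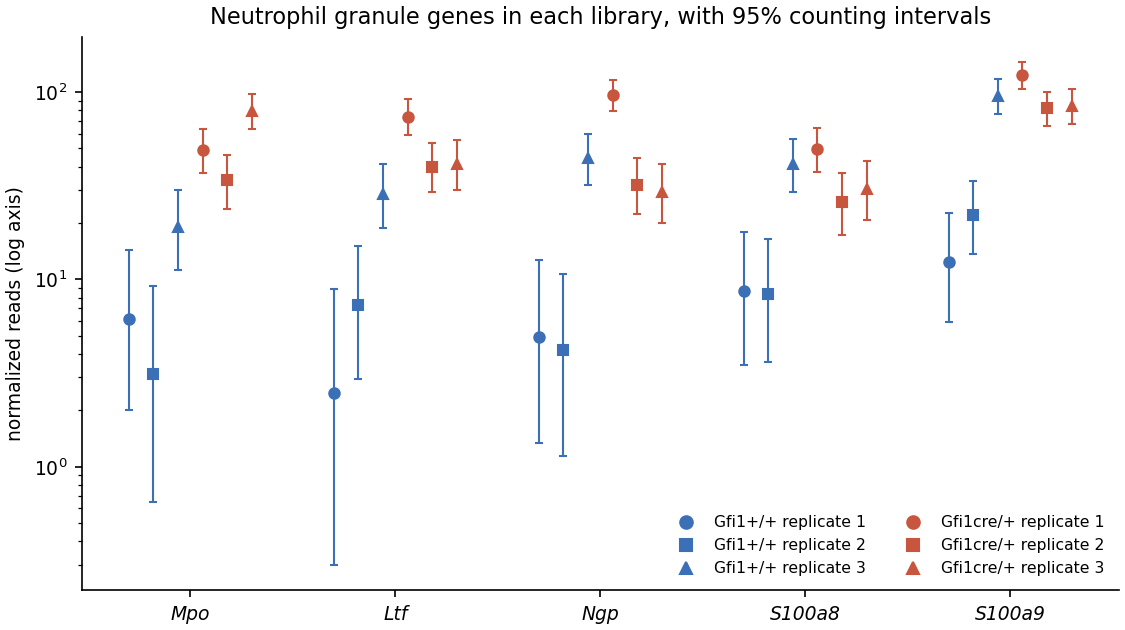
Normalized reads (log axis) of Mpo, Ltf, Ngp, S100a8 and S100a9 in each library, Gfi1+/+ in blue and Gfi1cre/+ in red, with bars for exact 95% Poisson intervals of the read counts. Gfi1+/+ replicates 1 and 2 are lowest for every gene, Gfi1+/+ replicate 3 lies among the Gfi1cre/+ libraries for Ngp, S100a8 and S100a9, and Gfi1cre/+ replicate 1 is highest for every gene except Mpo, where Gfi1cre/+ replicate 3 reaches 79.26.

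All 5 genes thus had the higher mean in Gfi1cre/+, and 2 of 5, Mpo and Ltf, had libraries that did not overlap between the genotypes. Over all genes tested, 3.45% were higher in Gfi1cre/+ without overlap. Since the genotype contrast chose the 5 genes, nothing is read from the comparison of these shares. For background, 0.104% of all genes tested were higher at a fold above 2 with an unadjusted p under 0.05 and 0.367% were lower, and without the fold limit 1.02% were higher and 2.02% lower. Only 20 of 14455 genes had a log2 fold change above that of S100a8, the lowest of the 5.

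The 5 genes were among the lowest in the table. Only 2.27% to 4.77% of listed genes had a lower mean over the 6 libraries than S100a8, Mpo, Ltf or Ngp, and 13.5% had a lower mean than S100a9. Genes were tested if they reached 40 normalized reads in at least 1 library, and all 5 passed. Mpo and Ltf passed only through Gfi1cre/+ libraries, 2 for each gene, so a gene that passed in this way had to be higher there. Ngp and S100a8 reached the minimum in 1 library of each genotype, and S100a9 in Gfi1+/+ replicate 3 and in the 3 Gfi1cre/+ libraries. S100a9 alone had a mean over all libraries of at least 40 normalized reads.

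Gfi1+/+ replicate 3 separated the Gfi1+/+ group for every member. Its level was 4.08 times the mean of Gfi1+/+ replicates 1 and 2 for Mpo, 5.81 times for Ltf, 9.70 times for Ngp, 4.83 times for S100a8 and 5.53 times for S100a9. Against the mean of the Gfi1cre/+ libraries it was 0.352 times as high for Mpo, 0.550 for Ltf, 0.842 for Ngp, 0.988 for S100a9 and 1.17 for S100a8. The early gene was thus furthest below the Gfi1cre/+ level in this library and the calprotectin genes were near it. Of all genes tested, 38.7% were higher in Gfi1+/+ replicate 3 than in both other Gfi1+/+ libraries. Counted together, the 5 genes took 28, 43 and 216 reads in the Gfi1+/+ libraries and 450, 240 and 280 reads in the Gfi1cre/+ libraries. As counts per 1000000 reads on genes, these were 2.06, 2.70 and 13.4 in Gfi1+/+ and 23.2, 12.7 and 15.6 in Gfi1cre/+. The summed level of Gfi1+/+ replicate 3 therefore lay between those of Gfi1cre/+ replicates 2 and 3.

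With each library left out in turn, all 5 fold changes stayed above 0, which the choice of the genes on this contrast made likely beforehand. Leaving out Gfi1+/+ replicate 3 gave the highest value for every gene, a log2 fold change of 3.25 for Mpo, 3.24 for Ltf, 3.05 for Ngp, 1.87 for S100a8 and 2.45 for S100a9. The lowest values were 2.11 for Mpo, 1.49 for Ngp and 0.79 for S100a8, all without Gfi1+/+ replicate 2, and 1.69 for Ltf and 1.02 for S100a9, both without Gfi1+/+ replicate 1. In these fits the Gfi1+/+ mean rested on 2 libraries, 1 of which was Gfi1+/+ replicate 3.

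**Figure D2:**
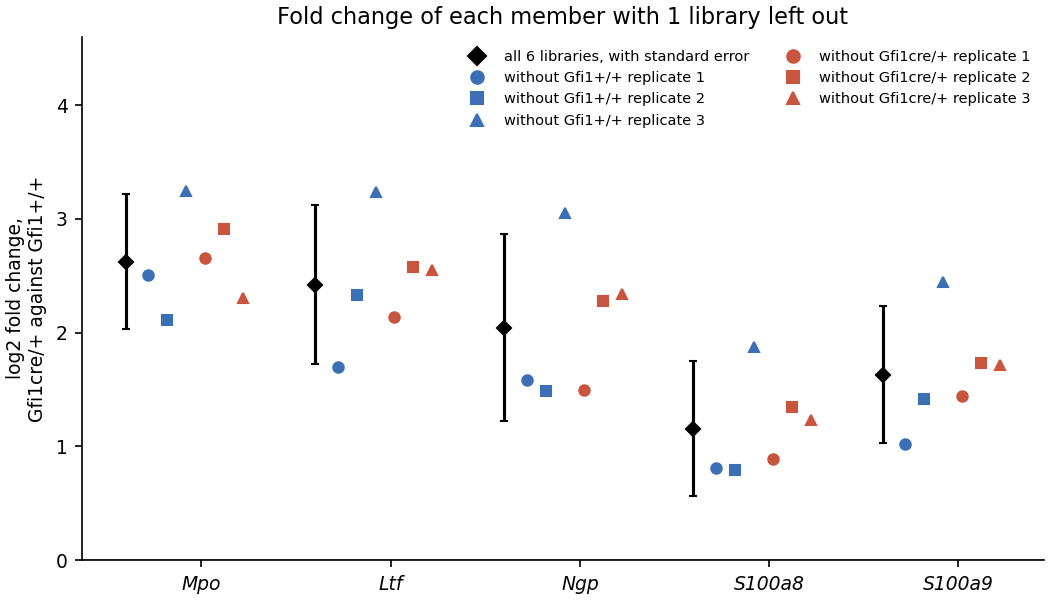
Log2 fold change of each gene, Gfi1cre/+ against Gfi1+/+ on log2(normalized reads + 1), from all 6 libraries (black diamond, with its standard error) and with 1 library left out (coloured by the genotype of that library). All values lie above 0, and the blue triangle, without Gfi1+/+ replicate 3, is the highest for every gene, reaching 3.25 for Mpo.

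The order of the early and late genes within a library was compared on normalized reads per kilobase of the union of each gene's exons. S100a9 was first in all 6 libraries. S100a8 came next except in Gfi1cre/+ replicate 1, where Ngp was above it at 79.1 against 71.5 normalized reads per kilobase. Mpo and Ltf took the last places in every library. This order depended on the length scaling, without which the mean log2 ratio to Mpo in Gfi1cre/+ was -0.18 for Ngp and -0.59 for S100a8, and Mpo, at 79.26 normalized reads in Gfi1cre/+ replicate 3, came directly after S100a9 at 83.97. Mpo was last in 4 libraries and came above Ltf in Gfi1+/+ replicate 1 and in Gfi1cre/+ replicate 3. In Gfi1+/+ replicate 1 that order rested on 5 reads of Mpo and 2 reads of Ltf, so the counting intervals of these neighbours overlapped widely.

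The distance of the late genes from Mpo was taken as the log2 ratio of normalized reads per kilobase within each library. For S100a8 this ratio was 2.79, 3.72 and 3.42 in the Gfi1+/+ libraries and 2.33, 1.91 and 0.91 in the Gfi1cre/+ libraries. The libraries did not overlap, and the mean ratio was 3.31 ± 0.475 (SD, n = 3) in Gfi1+/+ and 1.72 ± 0.729 (SD, n = 3) in Gfi1cre/+. In Gfi1+/+ replicates 1 and 2 it rested on only 7 and 8 reads of S100a8 and on 5 and 3 reads of Mpo. All ratios here share Mpo, and the genes were chosen on these values, so nothing is read from the lack of overlap. For S100a9 the ratio was 3.71, 5.52 and 5.04 in Gfi1+/+ and 4.05, 3.99 and 2.80 in Gfi1cre/+, with means of 4.76 ± 0.936 and 3.61 ± 0.705 and with overlap. The secondary granule genes overlapped as well. The ratio of Ngp to Mpo had a mean of 1.93 ± 0.772 in Gfi1+/+ and of 1.31 ± 1.22 in Gfi1cre/+, and that of Ltf to Mpo had a mean of 0.15 ± 1.32 in Gfi1+/+ and of -0.04 ± 0.803 in Gfi1cre/+. In Gfi1cre/+ replicate 3, Ngp, S100a8 and S100a9 stood closest to Mpo, with log2 ratios of 0.05 for Ngp, 0.91 for S100a8 and 2.80 for S100a9, whereas Ltf, at -0.94, was lower only in Gfi1+/+ replicate 1, at -1.33. Mpo made up 30% of the reads of the 5 genes in that library and between 6.98% and 17.9% in the others.

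**Figure D3:**
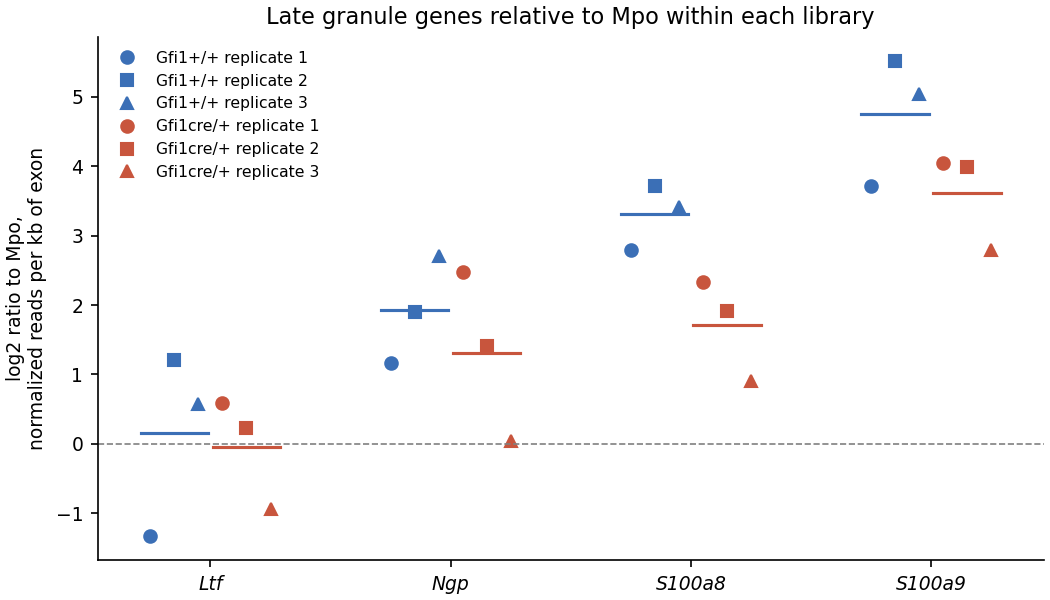
Log2 ratio of each late gene to Mpo in normalized reads per kilobase of exon, for the 3 Gfi1+/+ libraries (blue) and the 3 Gfi1cre/+ libraries (red), with lines at the group means. Only for S100a8 are the 3 Gfi1cre/+ libraries all below the 3 Gfi1+/+ libraries, at 0.91 to 2.33 against 2.79 to 3.72.

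The 2 calprotectin genes kept a closer ratio to each other than the secondary granule genes did. S100a9 was between 1.90 and 4.22 times as high as S100a8 per kilobase, and Ngp was between 1.61 and 5.65 times as high as Ltf. The ratio of 5.65 was that of Gfi1+/+ replicate 1, on 4 reads of Ngp and 2 of Ltf. The ratio of 1.61 was that of Gfi1+/+ replicate 2, on 4 reads of Ngp and 7 of Ltf. Counting error therefore limits this comparison. Over the 6 libraries, which share genotype, tissue and size factor, Pearson's r on the log2 scale was 0.987 for Ngp with S100a8, 0.981 for Ltf with S100a9 and 0.965 for S100a8 with S100a9. Mpo followed the late genes less closely, with r from 0.842 to 0.869. Without the 2 libraries furthest from the median on the first gene's axis, Mpo had r of 0.557 with Ltf, -0.07 with Ngp, -0.19 with S100a8 and -0.02 with S100a9, whereas Ngp had r of 0.992 with S100a9 and 0.897 with S100a8. Ltf fell to r of 0.704 with S100a9 and of 0.431 with S100a8. The relation of Mpo to Ngp, S100a8 and S100a9 thus rested on those outer libraries. These are descriptions over 6 points.

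The genes with the highest r over the 6 libraries that are named here were no granule genes. Mfn1, a mitochondrial fusion gene, had the highest r with Mpo (0.982). Atp6ap1, an accessory gene of the vacuolar proton pump, was also among the most like it (0.972). Lnx2 (0.996), Aif1l (0.992) and Bop1 (0.990) were most like the mean of the standardized late genes. Blnk (0.989), an adaptor of the B cell receptor, came after them. Mfn1 and Atp6ap1 varied by an SD of only 0.0488 and 0.0197 on the log2 scale over the 6 libraries. Over these 6 points, 22 and 52 of 14450 genes had r of at least 0.95 with Mpo and with the late genes. Lyz2, of the secondary granule list, was among the 52, at rank 29 with r of 0.962.

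Other genes of the neutrophil lineage came from 4 lists of primary granule, secondary granule, tertiary granule and mature neutrophil genes and of granulocyte transcription factors. Besides the members, these lists held 66 genes, of which 28 had a row and 27 were tested. The mean was higher in Gfi1cre/+ for 19 and lower for 8, and their median log2 fold change was 0.04, against -0.0001 over all genes tested. Their values ran from -0.31 to 0.52, all below the lowest member, which the choice of the members on this contrast made likely beforehand. Their means in Gfi1+/+ ranged widely, from 34.6 normalized reads for Camp to 3496 for Anxa1. The values do not show which cells these reads came from, so they cannot show whether neutrophil RNA of these genes differed. None passed an adjusted p of 0.05 by limma, edgeR or DESeq2. At an unadjusted p under 0.05, 1 gene was higher (Lyz2) and 1 was lower (Klf5) by limma. Genes that define these stages most sharply, such as Elane, Prtn3 and Ctsg of the primary granules, Lcn2 and Chil3 of the secondary granules, and Ly6g, Cxcr2 and Retnlg of mature neutrophils, had no row in the table used here.

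In the primary granule list, Serpinb1a, an inhibitor of neutrophil serine proteases, had a log2 fold change of -0.16 (SE 0.109), and Cd63, a membrane protein of granules and of lysosomes in many cells, had one of -0.07 (SE 0.0812). Neither passed the test. Camp, which encodes cathelicidin of the secondary granules, was at 27.16, 33.5 and 43.25 normalized reads in Gfi1+/+ and at 68.76, 23.08 and 25.48 in Gfi1cre/+. Its highest library was Gfi1cre/+ replicate 1, as for Ltf and Ngp, but Gfi1cre/+ replicates 2 and 3 lay below all 3 Gfi1+/+ libraries, and the log2 fold change was 0.02 (SE 0.412). Lyz2, lysozyme of neutrophils and macrophages, was at 514.72, 526.65 and 662.43 normalized reads in Gfi1+/+ and at 685.83, 685.29 and 622.73 in Gfi1cre/+. Here too Gfi1+/+ replicate 3 was the highest of its group and overlapped with Gfi1cre/+, and the log2 fold change of 0.23 (SE 0.0998) had an unadjusted p of 0.0432 and an adjusted p of 0.999 by limma. Cybb, the gp91 subunit of the NADPH oxidase, had a log2 fold change of -0.06 (SE 0.144).

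Among mature neutrophil genes, Mmp9, the tertiary granule gelatinase that osteoclasts also make, had the largest log2 fold change outside the members, 0.52 (SE 0.328), and did not pass the test. It was 0.21 without Gfi1+/+ replicate 1, 0.32 without Gfi1cre/+ replicate 2 and 0.94 without Gfi1+/+ replicate 2. Itgam, the integrin subunit CD11b of neutrophils and macrophages, was at 139.48, 145.53 and 152.95 normalized reads in Gfi1+/+ and at 165.36, 170.43 and 167.95 in Gfi1cre/+. Its log2 fold change was 0.20 (SE 0.0927), and it was the 1 gene of the 4 lists outside the members whose libraries were higher in Gfi1cre/+ without overlap. In the other direction, 5 genes of these lists were lower without overlap, namely Gfi1, Klf5, Lef1, Runx1 and Serpinb1a, where 4.07% of all genes tested were lower in this way. Csf3r, the G-CSF receptor that marks the granulocyte lineage, was at 35.8, 30.36 and 63.29 normalized reads in Gfi1+/+ and at 41.78, 39.06 and 49.06 in Gfi1cre/+, and again Gfi1+/+ replicate 3 was the highest of its group. Its log2 fold change was 0.07 (SE 0.290). Of the transcription factors, Cebpa, the activator of the granulocyte programme, had a log2 fold change of 0.07 (SE 0.148), and Klf5 had one of -0.31 (SE 0.0929, unadjusted p = 0.00937, adjusted p = 0.999 by limma).

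**Figure D4:**
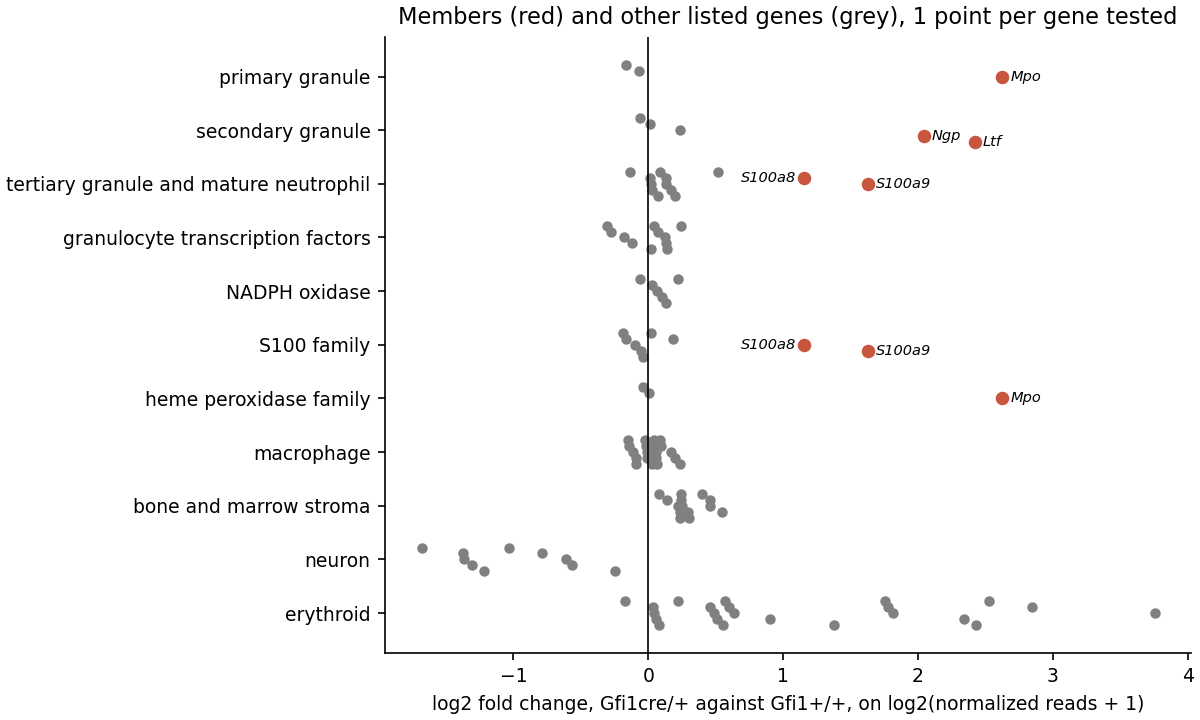
Log2 fold change, Gfi1cre/+ against Gfi1+/+ on log2(normalized reads + 1), for each tested gene of the lists on the vertical axis, with the 5 members in red. The members lie between 1.16 and 2.62, the other genes of the neutrophil lists between -0.31 and 0.52, and the erythroid and neuron lists spread to the right and to the left.

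The gene families and partners of the members showed no fold change of the members' size, and the members were chosen on theirs. The 7 tested S100 family genes other than the members had a median log2 fold change of -0.06, from -0.19 for S100a6 to 0.18 for S100b, which is a glial and cochlear gene. Of the heme peroxidase family, Lpo had -0.04 and Pxdn 0.01. The 6 subunit genes of the NADPH oxidase, which delivers the hydrogen peroxide that MPO uses, had a median of 0.08, and 5 were higher in Gfi1cre/+. The 8 genes for proposed calprotectin receptors had a median of 0.02. Of these, Emb had 0.18 (SE 0.0681, unadjusted p = 0.0292, adjusted p = 0.999 by limma), and Tlr4, the receptor through which calprotectin signals, had 0.08 (SE 0.116). None of the genes of these 4 groups tested beside the members passed an adjusted p of 0.05.

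The members lie in 3 regions. S100a8 and S100a9 are 22.6 kb apart on chromosome 3, and Ngp and Ltf are 596 kb apart on chromosome 9, with Camp 570.1 kb from Ngp on its other side. Tested genes within 500 kb of each member had median log2 fold changes of -0.07 around Mpo (10 genes), 0.08 around Ltf (14 genes), 0.04 around Ngp (16 genes) and -0.01 around S100a8 and S100a9 (18 genes). Around Mpo, Ngp and the calprotectin genes, no neighbour lay above 0.30 or below -0.35. Trank1, near Ltf, was lower at -0.86. No neighbour passed a fold of 2 with an unadjusted p under 0.05.

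Granulocyte precursors live in marrow, and neutrophils in marrow and blood, so marker levels of the other tissues a dissection could hold were set beside the members. Markers of bone and marrow stroma, such as the osteoblast genes Ibsp and Bglap, summed to 45683, 44780 and 70360 normalized reads in Gfi1+/+ and to 59404, 63853 and 64457 in Gfi1cre/+. Gfi1+/+ replicates 1 and 2 had the lowest sums and Gfi1+/+ replicate 3 the highest. This sum too put Gfi1+/+ replicate 3 with the Gfi1cre/+ libraries, but not every gene did. Of the 14 genes, 9 were higher in Gfi1+/+ replicate 3 than in both other Gfi1+/+ libraries. Over all genes tested this share was 38.7%. Within Gfi1+/+, Acp5 and Ctsk were highest in replicate 2, and Spp1 was lowest in replicate 3. All 14 genes of the list were tested and had the higher mean in Gfi1cre/+, with a median log2 fold change of 0.25, and none passed an adjusted p of 0.05. The median was 0.45 without Gfi1+/+ replicate 3. Pearson's r of the summed level with that of the members was 0.887 over the 6 libraries and -0.76 without the 2 libraries furthest from the median. The relation thus rested on Gfi1+/+ replicates 1 and 2 being low in both. Ibsp gave 26.9% of this sum, and it was at 12340, 6090 and 24660 normalized reads in Gfi1+/+ and at 16775, 15282 and 18658 in Gfi1cre/+.

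Erythroid genes, which mark red cell precursors and blood, summed to 38208, 47844 and 52183 normalized reads in Gfi1+/+ and to 69485, 74530 and 46795 in Gfi1cre/+. Gfi1cre/+ replicate 3, the library with the most Mpo, lay within the Gfi1+/+ range. Of 23 tested erythroid genes, 22 had the higher mean in Gfi1cre/+, 8 without overlap, with a median log2 fold change of 0.60 and none past an adjusted p of 0.05. Slc4a1, the red cell anion exchanger, was at 30.86, 50.26 and 81.22 normalized reads in Gfi1+/+ and at 851.19, 177.54 and 167.95 in Gfi1cre/+. Like Ltf, Ngp, S100a8 and S100a9, it was highest in Gfi1cre/+ replicate 1. Pearson's r of the erythroid sum with the members was 0.707, and 0.175 without the 2 libraries furthest from the median. Neuron genes ran the other way: they summed to 10087, 3681 and 2307 normalized reads in Gfi1+/+ and to 1809, 2281 and 2672 in Gfi1cre/+, all 10 had the lower mean in Gfi1cre/+ with none past an adjusted p of 0.05, and r with the members was -0.88, or -0.70 without the 2 furthest libraries. Macrophage genes ran between 10065 and 10882 normalized reads in Gfi1+/+ and between 9953 and 10788 in Gfi1cre/+, with r of -0.11, or -0.81 without the 2 furthest libraries, and a median log2 fold change of 0.04 over 20 genes. Over all 6 libraries, summed markers of bone and marrow stroma and of erythroid cells thus ran with the members. Those of neurons ran against them. Without the furthest libraries, bone and marrow stroma had the opposite sign and erythroid cells a weak relation. Running with the members was not particular to these lists. Over all 6 libraries r was also 0.922 for calprotectin receptors, 0.774 for granulocyte transcription factors, 0.738 for NADPH oxidase and 0.516 for endothelial genes. It was 0.00519 for hair cell genes and -0.33 for T and NK cell genes. The part of any of these lists in the difference between the genotypes was not tested.

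**Figure D5:**
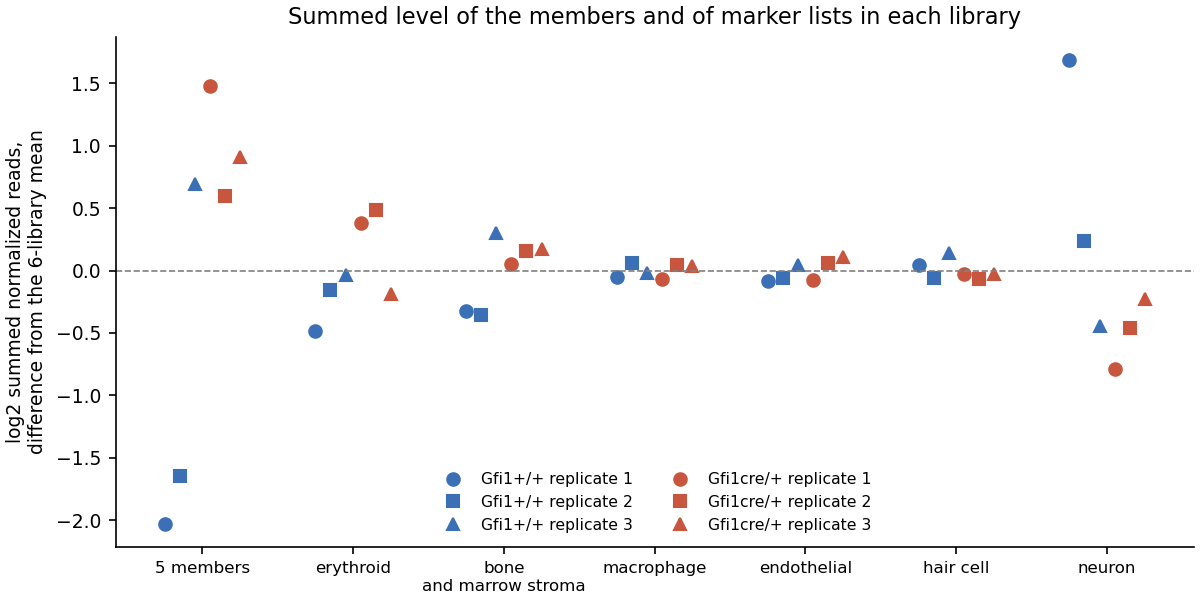
Summed normalized reads of the 5 members and of marker lists in each library, as the log2 difference from the mean of the 6 libraries. The members spread from -2.03 to 1.48, bone and marrow stroma place Gfi1+/+ replicates 1 and 2 lowest as the members do, and macrophage and hair cell sums differ little between libraries.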

How the data were processed

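RNA from the cochlear duct at postnatal day 8 was sequenced by the authors in 3 libraries per genotype (TruSeq), aligned to mm10 with TopHat, restricted to uniquely mapped reads and counted on genes with HTSeq-count, and genes with at least 40 reads were kept. Versions, annotation and strand setting are not given in the sources used here, so reads of overlapping or antisense genes cannot be separated. The deposited values are a signal per gene, which the methods call quantile-normalized. In each column 100% of values, within a tolerance of 0.006 normalized reads, were whole reads divided by 1 factor (0.810 to 1.15), and this factor equalled the median-of-ratios size factor. The values were used as deposited.

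The 5 members, the gene lists and the motifs were chosen with earlier results of these data known, so no p-value is given for a member. A gene was tested if 1 or more libraries reached 40 normalized reads (14455 of 14865). The model was limma 3.58.1 in R 4.3.3, fitted to log2(value + 1). Genotype was its single term, variances were moderated by eBayes along the mean trend, and two-sided p-values were adjusted by Benjamini and Hochberg. Replicates are separate samples per the labels, and no 2 libraries of the same genotype agreed within sampling noise (chi-square per degree of freedom of at least 3.84). Intervals are exact Poisson and, like the floor of 3 reads, cover counting error only. Named genes were the members, every primary and secondary granule gene with a row, the 5 highest or nominally changed genes of other lists, and the genes most correlated with the members. They are given in part, and 1 gene is not reported here. Coordinates and exons came from GENCODE M21 (GRCm38, 14796 identifiers matched), sequences from RefSeq (GRCm38.p6). Alternatives were pseudocounts of 0.5 and 10, other filters, limma without a trend, quantile normalization, thinning, a replicate block, leaving out each library, edgeR 4.0.16 and DESeq2 1.42.0 on recovered reads, and levels without length scaling. The steps were tested on simulated counts.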

Additional observations from a re-analysis of the deposited data

How the results depend on the processing

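All 76 fold changes of the 5 members recomputed under the alternatives stayed above 0. The choice of the genes on this contrast in the same libraries made this likely beforehand. A pseudocount of 10 gave 1.74 for Mpo and 0.76 for S100a8, and edgeR gave 2.48 and 0.84. Where the mean had to reach 40 normalized reads, S100a9 alone was left among the members. The count of genes at an adjusted p under 0.05 (4) became 10 with DESeq2 and ranged from 0 to 48 with 1 library left out (0 without Gfi1cre/+ replicate 3, 8 without Gfi1+/+ replicate 2, 48 without Gfi1+/+ replicate 3). Genes higher at a fold above 2 with an unadjusted p under 0.05 (15) became 6 with the mean filter and 11 to 24 with 1 library left out (24 without Gfi1+/+ replicate 3). Genes lower by the same rule (53) became 26 without a trend, 137 with edgeR and 127 with DESeq2. With 1 library left out they ranged from 9 to 160: 9, 87 and 160 without Gfi1+/+ replicates 1, 2 and 3, and 11 and 24 without Gfi1cre/+ replicates 1 and 2. The primary granule median (-0.07) was -0.12 with the mean filter and ranged from -0.14 to -0.00619 with 1 library left out. Without length scaling, the mean log2 ratios to Mpo were 0.44 for Ngp, 1.01 for S100a8 and 2.04 for S100a9 in Gfi1+/+, and -0.18, -0.59 and 0.90 in Gfi1cre/+. The direction changed with 1 library left out for Camp (-0.47 to 0.30), Cybb (-0.14 to 0.0362), Anxa1 (-0.0270 to 0.0766), Csf3r (-0.14 to 0.38, and -0.000187 with edgeR) and Cebpa (-0.0615 to 0.26). The cause of these changes was not tested. With the replicate block, 4 genes passed an adjusted p of 0.05, 13 were higher and 56 lower at a fold above 2 with an unadjusted p under 0.05, and no member changed direction. Same-numbered libraries had correlations of -0.09, 0.11 and -0.03 between their deviations from the group means. With 3 libraries per genotype, these values cannot show whether same-numbered samples shared a litter, a dissection or a batch. The labels give them only a shared number. The members rest on 2 to 141 reads per library, which limits every ratio between them.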
